A study of Mus musculus with 1073 samples.

Results

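The haemato-endothelial cells of the early yolk sac were 86 (58.5%) of the *Flk1*-GFP+ cells kept from E7.25 mouse embryos, the other 61 being the cells they were compared with. The whole series holds 926 kept cells. They were chosen by their own reads: a cell belonged to the class when at least 4 of the 6 genes *Kit*, *Gata2*, *Fli1*, *Hhex*, *Lmo2* and *Tal1* had 1 count or more. The other cells came from the same sort and the same captures. The class and the other cells were compared gene by gene, with the 6 genes left out and with both sequencing lanes required to agree. Since the class was set by measured values, all differences between the classes are descriptions without a test, and cells that shared a capture are not replicates.

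Blood and vessels of the yolk sac arise together from mesoderm that leaves the primitive streak and begins to make the VEGF receptor FLK1. Within this mesoderm, cells that switch on *Tal1*, *Lmo2*, *Gata2*, *Fli1* and *Hhex*, with the receptor *Kit*, have endothelial and haematopoietic potential and are known as haemangioblasts or haemato-endothelial progenitors. Endothelial cells go on to express adhesion and angiopoietin receptor genes, whereas primitive erythroid cells and megakaryocytes come under the control of *Gata1* and *Gfi1b*.

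The E7.25 yolk sacs came from *Flk1*-GFP/+ embryos, which carry a GFP reporter of *Flk1* (*Kdr*) on a C57BL/6 background, and every E7.25 cell, in the class or not, therefore carried the reporter. Cells were dissociated with trypsin, sorted as *Flk1*-GFP+ at the neural plate stage and captured singly on the Fluidigm C1, which gives each cell its own library. No cell is tied to an embryo, so no p-value is given. Later cells are used where the class is placed beside other stages: *Flk1*-GFP+ cells of *Flk1*-GFP/+ embryos at E7.75, and, from C57BL/6 embryos dissociated with collagenase and dispase at E8.25 and E8.5, haematopoietic progenitor cells (HPC, TER119-CDH5+CD41+), primitive erythroid cells (EryP, CD41-CDH5-TER119+), megakaryocytes (Mk, TER119-CDH5-CD41+) and endothelial cells (Endo, TER119-CD41-CDH5+). The E7.75 libraries were sequenced on a flow cell of their own, and stage cannot be told apart from run there, nor from genotype and dissociation at E8.25 and E8.5.

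Depth was alike in the classes. The median read count per cell was 1804860 in the class (964875 to 3246131) and 1848579 in the other cells (875346 to 3309556), and the median number of genes with a count was 8891.5 and 8686. When every cell was thinned to 840000 counts the medians were 8396.5 and 8257 genes. Transcripts of both sexes, which a capture site with more than 1 cell can give, were present in 18 of 86 class cells (20.9%) and 15 of 61 other cells (24.6%); their part in the results was not tested beyond the values without them. Reads are not molecules, and the exact (Clopper-Pearson) 95% intervals of shares given here cover counting error only.

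The 6 selecting genes ran as a graded series across the sorted cells. None of the 6 was found in 3 cells, 1 in 8, 2 in 27, 3 in 23, 4 in 25, 5 in 28 and all 6 in 33. Just outside the class were therefore 23 cells with exactly 3 genes, and just inside it were 25 cells with exactly 4. Class cells made up 50 of 73 cells in lane 6 (68.5%, 95% interval 56.6 to 78.9%) and 36 of 74 in lane 7 (48.6%, 36.9 to 60.6%). To see how each selecting gene went with the rest, each was set aside and the cells were divided by whether at least 3 of the other 5 genes had a count. On this division *Hhex*, a homeobox factor of early endothelium and visceral endoderm, had a mean of 81.1 CPM in 97 cells and 1.11 CPM in the remaining 50, a log2 ratio of 5.28. *Fli1*, an ETS factor, had 215 and 16.2 CPM (3.65), and *Tal1*, the bHLH factor required for all blood, had 60.0 and 4.46 CPM (3.48). Smaller ratios were found for the LIM factor *Lmo2* (2.81), for *Gata2* (2.11) and for the receptor *Kit* (1.73). Each of the 6 thus had a higher mean in cells with at least 3 of the other 5 than in the remaining cells, which describes the selection and supports nothing further.

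Across the transcriptome 9864 genes other than the 6 reached a mean of 5 CPM over all E7.25 cells with a count in at least 10% of them, and these were compared. A ratio is log2 of the mean CPM + 1 in the class over the mean CPM + 1 in the other cells, which understates the change of low genes. A gene was called when the ratio was 1 or more, a 2-fold difference, in the same direction in both lanes. By this rule 211 genes were higher in the class, 2.14% of those compared, and 1.15% were lower. The median ratio over all compared genes was 0.01. A gene low everywhere except in one class passed the filter through that class, so counts over these genes do not speak for genes left below it.

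The genes higher in the class were mostly found in more of its cells. Of the 211, 180 (85.3%) were found in a larger share of class cells than of other cells in both lanes, against 23.8% of all compared genes. By at least 10 percentage points in both lanes the shares were 55.9% and 3.76%. The call and the share of cells come from the same reads and are not independent. Of the lower genes 79 (69.9%) were found in a smaller share of class cells in both lanes and 34 were not, against 19.1% of all compared genes. By at least 10 points 29 (25.7%) were so, against 2.46% of all compared genes. A single cell held 50% or more of the summed CPM of the class (for lower genes, of the other cells) in 10 of the 211 higher and 16 of the lower genes. The size of the differences was also unequal, since 88 of the higher genes reached a log2 ratio of 2 and 32 reached 3, whereas 13 of the lower genes reached -2 and none reached -3. When the means of log2(CPM + 1) were compared instead, a measure less open to single high cells, 86 of the 211 higher genes were called again but 13 of the lower genes.

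**Figure D1:**
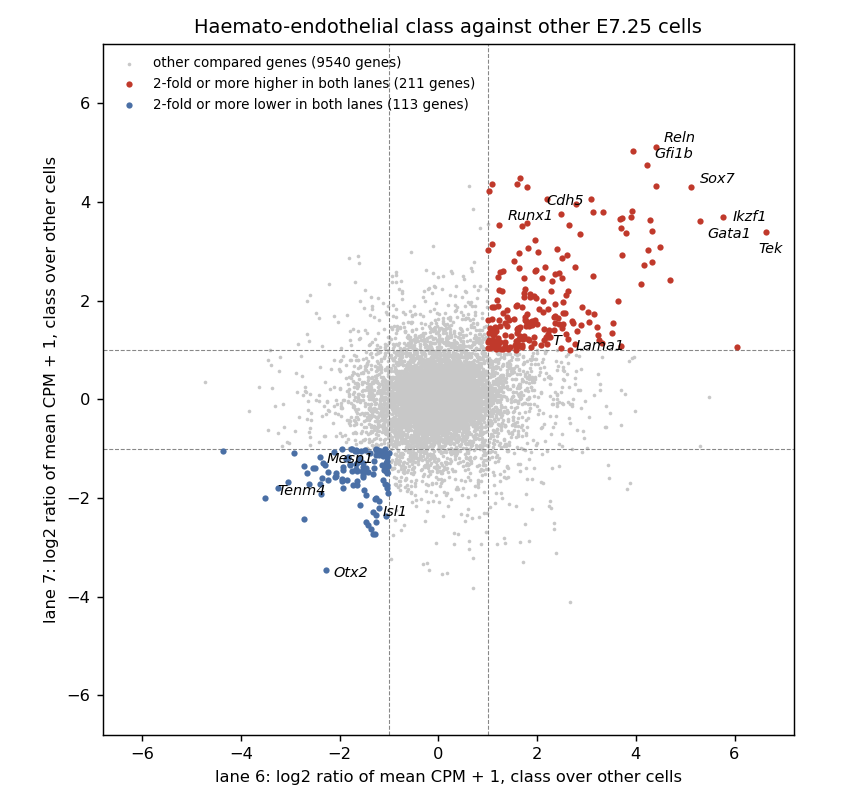
Log2 ratio of mean CPM + 1, class over other E7.25 cells, in lane 6 (x axis) and in lane 7 (y axis), 1 point for each of the 9864 compared genes, with called genes in colour. The 211 higher genes lie in the upper right beyond 1 in both lanes and reach larger ratios than the lower genes reach in the lower left.

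Endothelial genes were higher in the class. Of 24 in the list, 15 fell below the filter, 9 were compared and 7 of the 9 were higher in the class, with none lower. The median ratio of the 9 was 2.46, against 0.01 over all compared genes and a background of 2.14% called. Members such as *Cdh5* were near 0 outside the class and passed the filter through it. Over the alternatives, including that without the filter, the list median ran from 0.88 to 3.05. The 0.88 is the ratio of *Aplnr*, the only member left at a mean of 50 CPM or more. *Tek* (ENSMUSG00000006386), the angiopoietin receptor TIE2, ran from 0 to 1506 CPM in class cells with a median of 2.39 and a mean of 82.6 ± 221 (SD, n = 86). In the other cells it ran from 0 to 148.2 CPM with a median of 0 and a mean of 2.47 ± 19.0 (n = 61). *Tek* was found in 50 class cells (58.1%, 95% interval 47.0 to 68.7%) and 4 other cells (6.56%, 1.82 to 15.9%), and its ratio was 4.59, with 6.63 in lane 6 and 3.40 in lane 7. A single other cell held 98.4% of the *Tek* CPM outside the class, so the levels overlapped at the top while the shares stood apart. *Sox7*, a SOXF factor of early endothelium, ran from 0 to 382 CPM in the class (median 5.80) and from 0 to 17.2 CPM in the other cells (median 0), a ratio of 4.49. *Cdh5*, which encodes VE-cadherin of endothelial junctions, was found in 37.2% and 6.56% of cells at means of 10.4 and 0.04 CPM, and its highest values were 108.01 and 0.90 CPM.

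The remaining endothelial genes that passed the call rule covered secreted, receptor and junction genes. *Egfl7*, an extracellular protein made by endothelium, was detected widely in both classes, in 89.5% and 70.5% of cells, with medians of 26.3 and 2.79 CPM and a ratio of 2.46. *Ramp2*, the co-receptor of the adrenomedullin receptor, was found in 58.1% and 21.3% of cells (means 13.0 and 1.12 CPM), and *Rasip1*, a regulator of vessel lumen formation, in 58.1% and 19.7% (10.3 and 2.42 CPM). *Pecam1*, which encodes the adhesion molecule CD31, had a ratio of 1.86. *Ptprb*, the phosphatase VE-PTP that acts on TIE2 and VE-cadherin, was not in the list and was higher with 28 of 86 cells at a mean of 20.8 CPM and 4 of 61 at 0.08 CPM, a ratio of 4.33. Not all endothelial genes were present: *Emcn* and *Cldn5* had no count in any E7.25 cell, *Tie1* was found in 4 and *Plvap* in 20 of 86 class cells and in no other cell, at means under the filter, and *Aplnr* (0.88) and *Ecscr* (1.19) did not reach the ratio in both lanes.

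The DNA in front of 4 receptor and regulator genes is shown, as examples of called genes with a single start site in the RefSeq promoter table for GRCm38.p6. *Rasip1*, *Gata1*, *Myb*, *Reln* and *Alas2* also had a single start there and are not printed. Among those not printed, *Alas2* held 1 GATA match. Each line gives the 250 bases before that start, 5′ to 3′ on the gene's own strand, in lower case. Capitals mark the letters AGATAA (bound by factors of the GATA family), the ETS core GGAAG, and the E-box of bHLH factors, CAGNTG, each searched on both strands. *Tek* lies on the plus strand at chr4:94739039-94739288, *Flt1* on the minus strand at chr5:147726012-147726261, *Flt4* on the plus strand at chr11:49609429-49609678 and *Gfi1b* on the minus strand at chr2:28621983-28622232. The *Flt4* window lies within the gene as annotated in GENCODE M21, which starts at 49609263.
Tek: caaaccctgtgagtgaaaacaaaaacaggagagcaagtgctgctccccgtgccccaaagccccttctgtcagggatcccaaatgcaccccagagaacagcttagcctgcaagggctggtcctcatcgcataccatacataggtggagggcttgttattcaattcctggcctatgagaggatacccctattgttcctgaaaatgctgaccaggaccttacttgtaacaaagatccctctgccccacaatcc
Flt1: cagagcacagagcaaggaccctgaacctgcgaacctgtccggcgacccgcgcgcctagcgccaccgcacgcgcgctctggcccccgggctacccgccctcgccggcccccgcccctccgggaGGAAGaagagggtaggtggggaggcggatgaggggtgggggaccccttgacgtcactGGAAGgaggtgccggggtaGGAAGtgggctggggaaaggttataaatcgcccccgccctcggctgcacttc
Flt4: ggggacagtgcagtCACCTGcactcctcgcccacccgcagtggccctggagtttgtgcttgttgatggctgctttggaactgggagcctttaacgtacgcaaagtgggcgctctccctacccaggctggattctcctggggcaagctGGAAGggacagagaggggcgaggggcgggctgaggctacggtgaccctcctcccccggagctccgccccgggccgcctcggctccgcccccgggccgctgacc
Gfi1b: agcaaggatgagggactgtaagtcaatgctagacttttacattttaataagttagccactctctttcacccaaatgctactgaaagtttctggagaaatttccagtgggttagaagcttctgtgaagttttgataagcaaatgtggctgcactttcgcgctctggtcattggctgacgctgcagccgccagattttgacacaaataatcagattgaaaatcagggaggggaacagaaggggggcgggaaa
The *Flt1* window held 3 ETS cores and the *Flt4* window 1 ETS core and 1 E-box, whereas the *Tek* and *Gfi1b* windows held none of the letters searched. Over the 203 windows of the higher genes that are in RefSeq's promoter file, 67.5% held an ETS core, 42.9% an E-box and 7.39% the GATA letters. The same shares over all 8784 windows of 6880 compared genes were 69.0%, 35.2% and 5.40%, and over all 32851 windows held there they were 64.1%, 44.8% and 9.99%. A match is a run of letters and not a site, and its absence from so short a window says nothing about a factor.

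The receptors for VEGF were divided. *Flt1* (VEGFR1), a high-affinity receptor that can trap the ligand, ran from 0 to 363 CPM in the class (median 35.0) and from 0 to 231 CPM in the other cells (median 0.45). Its means were 65.0 ± 77.8 and 14.0 ± 36.2 CPM, a ratio of 2.13 with 2.35 and 1.92 in the lanes, and the ranges overlapped. *Flt4* (VEGFR3), the receptor for VEGFC, was found in 44.2% of class cells (33.5 to 55.3%) and 11.5% of other cells (4.74 to 22.2%), a ratio of 2.76. *Kdr*, which carries the reporter used for the sort, was found in 97.7% and 91.8% of cells with medians of 88.9 and 39.8 CPM, and its ratio of 0.49 was not called. The co-receptor *Nrp1* had a ratio of -0.46 and was present in nearly every cell, with medians of 140.8 and 176 CPM. Of the 11 ligands and receptors listed, 6 were compared, with 2 higher and none lower and a median ratio of 0.45.

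Transcription factors of the ETS and haemato-endothelial group had few called members once *Fli1*, *Tal1*, *Lmo2* and the other selecting genes were left out. Of 13 compared factors 1 was higher, 1 was lower, and the median ratio was 0.34. *Cbfa2t3*, which encodes the ETO2 co-repressor that binds with TAL1, had a median of 9.72 CPM in the class and 0 in the other cells, was found in 66.3% and 21.3% of cells, and had a ratio of 3.61. *Mef2c*, a MADS factor of heart and vessel progenitors, was lower, at means of 14.3 and 42.1 CPM in 30.2% and 41.0% of cells and a ratio of -1.50. *Etv2*, the ETS factor at the top of the endothelial and blood programme, had means of 38.7 and 16.7 CPM and a pooled ratio of 1.16, but the lanes gave 3.28 and 0.18 and it was not called.

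Haematopoietic regulators were higher in the class as well. Of 21 in the list 8 were compared and 5 were higher, with none lower and a median ratio of 3.21. *Gfi1b* and *Myb* were near 0 outside the class and passed the filter through it. Over the alternatives the list median ran from 0.67 to 3.84, and the 0.67 is that without the filter. *Runx1*, the master factor of definitive blood that is also made in early yolk sac mesoderm, ran from 0 to 600 CPM in the class (median 55.9, mean 106.5 ± 130.7) and from 0 to 118.4 CPM in the other cells (median 0.40, mean 11.0 ± 22.0). It was found in 81.4% (71.6 to 89.0%) and 55.7% (42.4 to 68.5%) of cells, with a ratio of 3.16, so that level and share both differed. *Gata1*, the erythroid and megakaryocytic factor, was found in 41.9% (31.3 to 53.0%) and 14.8% (6.98 to 26.2%) of cells with highest values of 412 and 74.9 CPM and a ratio of 3.85. *Gfi1b*, a repressor in the same lineages, was found in 28 class cells and 5 other cells, and no other cell exceeded 2.15 CPM against a highest class value of 315 CPM. *Myb*, the proliferation factor of definitive progenitors, was found in 27 class cells at a mean of 8.89 CPM and in 1 other cell. *Ikzf1*, the lymphoid and erythroid factor Ikaros, was found in 47.7% and 3.28% of cells, although 1 cell held 57.0% of its class CPM and its ratio of 4.88 includes that cell.

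Several genes of later blood cells were found in few or no cells. *Ptprc* (CD45) had no count in any E7.25 cell, *Itga2b* (CD41) was found in 8 of 86 class cells and 0 of 61 other cells, a 0 that leaves room for a share of 4.92% by the rule of 3 cells in 61 and of 5.87% by the exact interval, and the erythroid factor *Klf1* was found in 6 and 1 cells. The adhesion receptor *Cd44*, also on the list, was found in 58.1% and 65.6% of cells at means of 41.0 and 49.6 CPM and was not called. The class thus carried early endothelial and haematopoietic genes, as its name says, but none of *Emcn*, *Cldn5* or *Ptprc*. Erythroid genes were divided in the same way. Of 20 listed, 9 were compared and only *Alas2*, the first enzyme of haem synthesis in red cells, was higher, with 24.4% and 8.20% of cells at 10.1 and 1.27 CPM and a ratio of 2.29. The median of the 9 was 0.15. *Hbb-bh1*, an embryonic globin, fell just below the filter on the share of cells and was found in 15.1% of class cells and 1.64% of other cells, whereas *Hba-x* had no count in either.

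**Figure D2:**
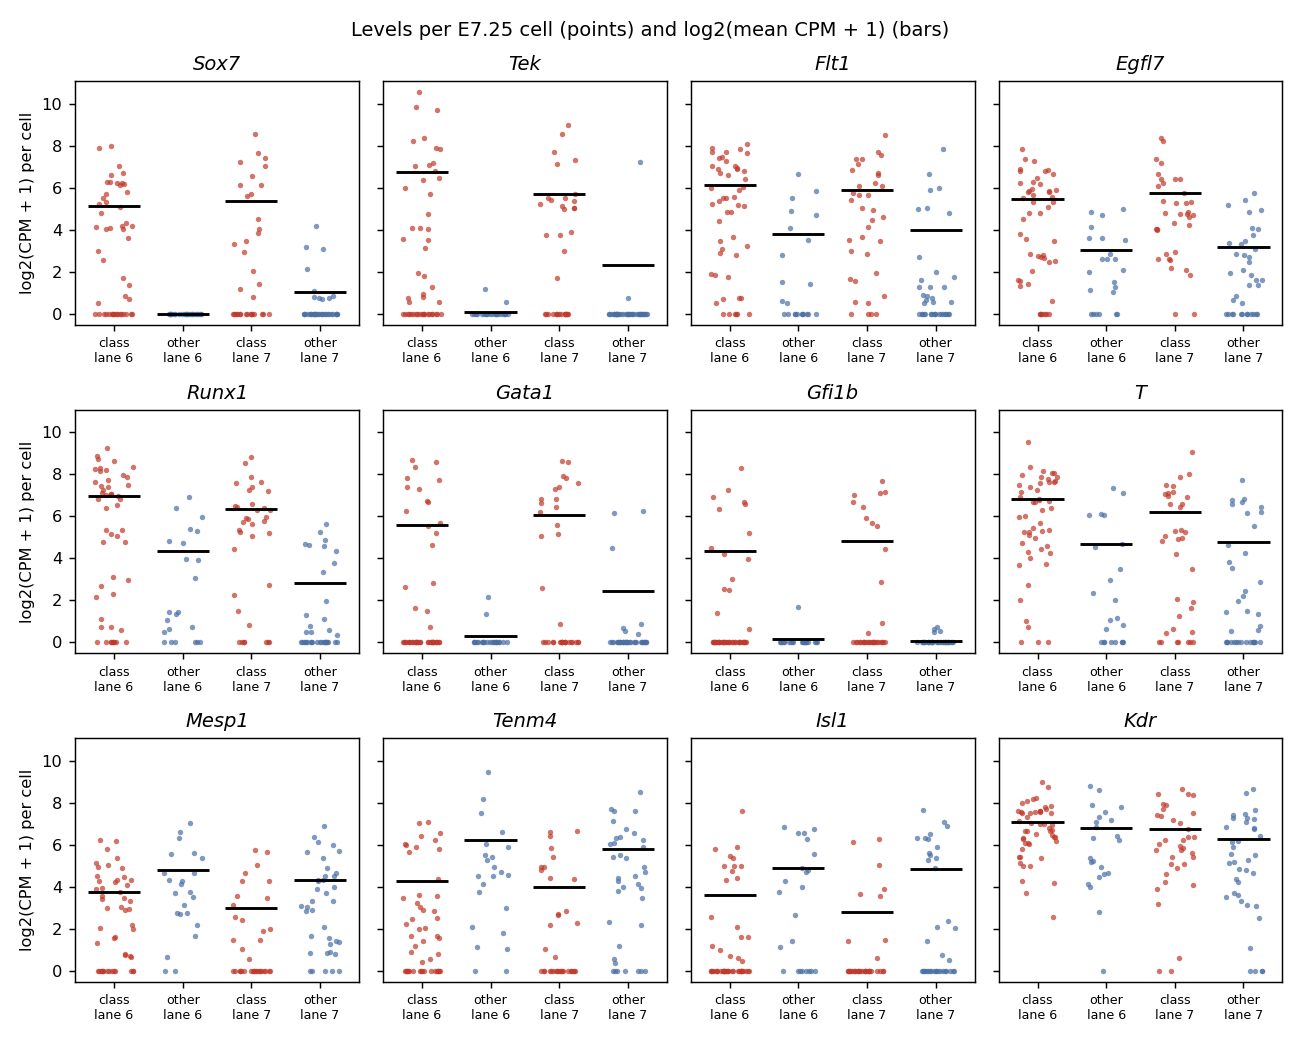
Log2(CPM + 1) of 12 named genes (y axis) in each E7.25 cell, 1 point per cell, for class (red) and other (blue) cells of lanes 6 and 7 (x axis), with a bar at log2 of the mean CPM + 1. *Tek*, *Sox7*, *Gata1* and *Gfi1b* are at 0 in most other cells. In the class *Tek* and *Sox7* are found in most cells, but *Gata1* and *Gfi1b* in 41.9% and 32.6%. *Mesp1*, *Tenm4* and *Isl1* have the higher bars in the other cells of both lanes, and *Kdr* is present in nearly every cell.

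The genes with the largest smaller-lane ratios included secreted, membrane and enzyme genes outside the lists. *Reln*, the secreted glycoprotein reelin, was found in 39 of 86 class cells and 4 of 61 other cells at means of 38.4 and 0.38 CPM, a ratio of 4.83. *Cd38*, an ectoenzyme found on many blood cells, had 23.4 and 0.08 CPM (4.51). *Nrip3* was the most abundant of them at 150 and 10.1 CPM, with 60.5% and 31.1% of cells and a ratio of 3.76. *Oit3* was found in 22 class cells at a mean of 15.5 CPM and in no other cell. That 0 leaves room for a share of 4.92% by the rule of 3 cells in 61 and 5.87% by the exact interval. *Edil3*, an extracellular ligand of integrins, was found in 31.4% and 1.64% of cells. *Scube2*, a secreted membrane-associated protein that takes part in VEGF and Hedgehog signalling, was found in 29 class cells and 1 other cell, and *Ube2l6*, an ISG15-conjugating enzyme, in 27 and 1.

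Extracellular and signalling genes added single members rather than whole pathways. *Hapln1*, which links hyaluronan to proteoglycans, was among the most abundant, at a median of 41.0 CPM and a highest value of 1979 in the class against a median of 0 in the other cells. It was found in 72.1% and 29.5% of cells with a ratio of 3.38. *Rspo3*, an enhancer of Wnt signalling with a part in vessel development, had medians of 116.7 and 12.3 CPM and a ratio of 1.76, the only called gene among 20 compared of the FGF and Wnt list. *Bmp2* had medians of 27.1 and 10.7 CPM (1.15), the only called gene among 17 of the BMP and TGF-beta list. *Cd9*, a tetraspanin, had medians of 29.6 and 4.25 CPM (1.72). Among 7 compared Notch pathway genes the receptor *Notch1* was higher (2.60) and the target *Hey2* lower (-1.40), although *Hey2* was found in a larger share of class cells, 36.0% against 24.6%, and 1 cell held 55.0% of the CPM of the other cells. *Lama1*, which encodes a laminin chain, passed the rule at 2.83, but 1 cell held 82.6% of its class CPM and the shares of cells were 29.1% and 26.2%. Its ratio was -0.44 once cells with transcripts of both sexes were left out.

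Genes of the primitive streak and nascent mesoderm went both ways. Of 25 listed, 11 were compared, 1 was higher and 2 were lower, and the median ratio was -0.83. *T* (Brachyury), the T-box factor of the streak, was higher, with a range of 0 to 744 CPM and a median of 39.6 in the class against 0 to 208 CPM and a median of 1.58 in the other cells. Its means were 95.6 ± 122.05 and 25.7 ± 46.2 CPM, a ratio of 1.86 with 2.13 and 1.42 in the lanes. *Mesp1*, the bHLH factor of the first cardiac and extraembryonic mesoderm, was lower, from 0 to 74.9 CPM with a median of 1.96 in the class and from 0 to 130 CPM with a median of 10.3 in the other cells. It was found in 61.6% (50.5 to 71.9%) and 88.5% (77.8 to 95.3%) of cells, and its ratio was -1.04. *Lhx1*, a LIM homeobox factor of lateral and intermediate mesoderm, was lower as well (-1.25), at medians of 1.78 and 10.1 CPM in 59.3% and 72.1% of cells. *Mixl1* had a pooled ratio of 0.00 because the lanes differed, at 0.63 and -1.64.

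Lateral and extraembryonic mesoderm factors were lower where they were called at all. Of 28 in the list 15 were compared, with none higher, 2 lower and a median ratio of -0.44. *Isl1*, a LIM homeobox factor of the second heart field and lateral mesoderm, was found in 33.7% of class cells (23.9 to 44.7%) and 55.7% of other cells (42.4 to 68.5%), a ratio of -1.53. *Msx2*, a homeobox target of BMP signals, was found in nearly equal shares, 88.4% and 90.2%, but at medians of 12.3 and 42.2 CPM (-1.10). *Pdgfra*, the mesenchymal growth factor receptor, had a ratio of -0.74 and was not called. Over 18 compared mesenchymal genes the median ratio was -0.24, but 0.04 in lane 6 and -0.07 in lane 7, and it turned sign under 2 alternatives (up to 0.26). *Hapln1* was the only called member.

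*Tenm4* and *Ackr3*, of the 12 lower genes with the largest smaller-lane ratios, were well detected and differed in level and share. *Tenm4*, a teneurin transmembrane protein, ran from 0 to 133.7 CPM in the class (median 1.13) and from 0 to 696 CPM in the other cells (median 22.1), in 57.0% and 85.2% of cells, a ratio of -1.80. *Ackr3* (CXCR7), a scavenging receptor for CXCL12, was found in 24.4% (15.8 to 34.9%) and 60.7% (47.3 to 72.9%) of cells, with means of 5.53 and 25.9 CPM and a ratio of -2.04. The shares of cells in the classes lay within 10 percentage points of each other for 8 of the remaining 10. *Otx2*, a homeobox factor of anterior epiblast and endoderm, had a ratio of -2.52 but was found in 17.4% and 21.3% of cells. *Pcx*, the mitochondrial enzyme pyruvate carboxylase, had -2.47 at 29.1% and 31.1%. *Slc13a4*, a sulphate transporter, had -2.52 and was found in 16.3% and 34.4%. *Rwdd3* had -2.36 at 11.6% and 13.1%, with 66.6% of its CPM in the other cells held by 1 cell. *Gpc6*, a glypican, had -1.69 at 57.0% and 55.7% of cells, with medians of 1.25 and 0.85 CPM, the class median being the higher. *Prss8* (-2.19), *Gm42986* (-2.71), *3110052M02Rik* (-2.09), *A430033K04Rik* (-1.76) and *D430042O09Rik* (-1.24) completed the 12, each found in under 30% of cells of either class. The direction turned for *Rwdd3* (2.27) and *Gm42986* (0.26) with a class of at least 3 selecting genes, and for *D430042O09Rik* (0.024) with all 6.

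Cell cycle and general metabolism lists held no called gene. None of the 18 S phase genes, 19 mitosis genes, 17 compared glycolysis and hypoxia genes or 10 compared immediate early and stress genes was called, and their median ratios were -0.06, 0.05, 0.21 and 0.08. Integrins, cadherins and EMT genes had 1 called member of 14 compared (*Cd9*) and a median of -0.33, extracellular matrix genes 1 of 17 (*Lama1*) and a median of 0.40, and pluripotency genes 1 of 6 (*Otx2*, lower) and a median of -0.08. Of 5 compared Hedgehog pathway genes none was called, at a median of -0.46. These shares of called genes rest on few members and are not set against the background by any test.

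**Figure D3:**
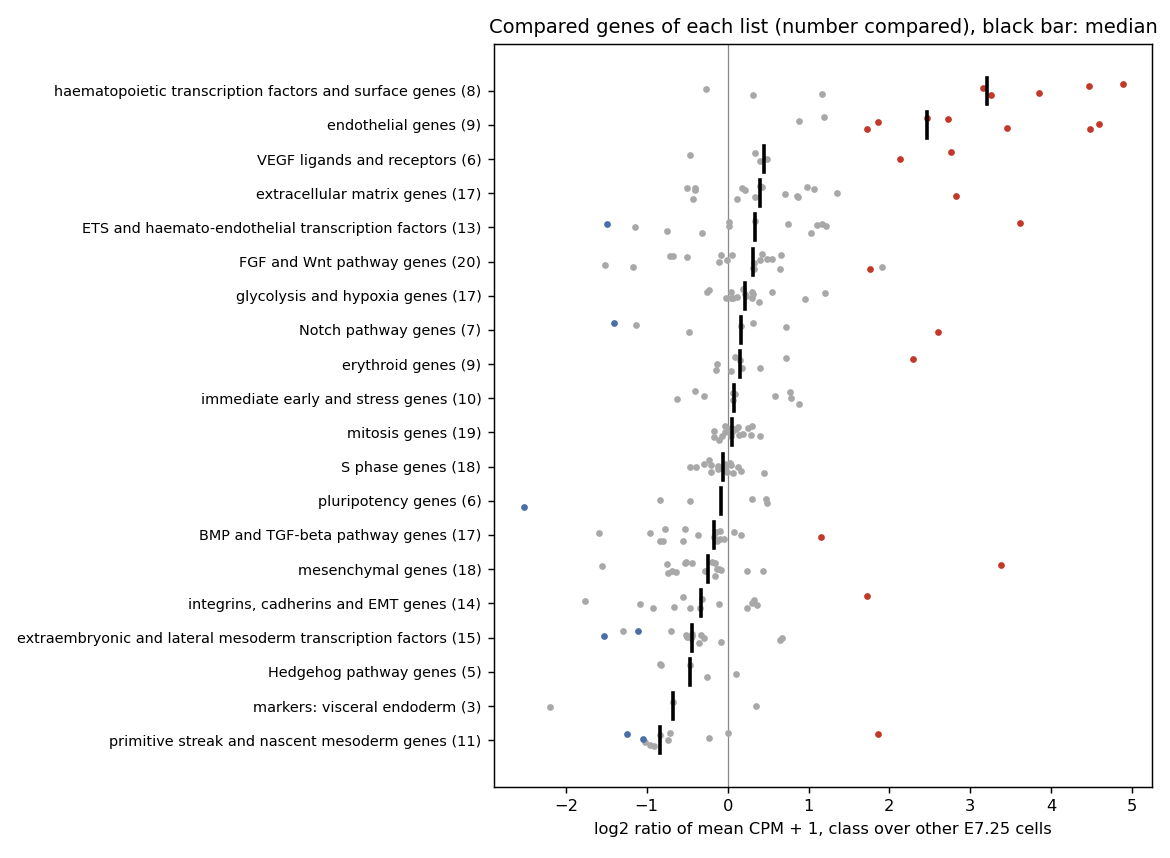
Log2 ratio of mean CPM + 1, class over other E7.25 cells (x axis), for each compared gene of each list with at least 3 compared (y axis, number compared in brackets), with called genes in red (higher) or blue (lower), a bar at the list median and a line at 0. The haematopoietic and endothelial lists have medians of 3.21 and 2.46, and the medians of the other lists lie between -0.83 and 0.45. Some genes of the first 2 lists were near 0 in the other cells and passed the filter through the class.

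Some markers of other cells the sort could hold were found in most cells of both classes. Of 20 visceral endoderm markers 6 were in the table, 3 were compared and none was called (median -0.68), and their summed level ran from 5.36 to 899 CPM in the class (median 159) and from 1.505 to 1183 CPM in the other cells (median 177). Among them *Apoe* was found in 97.7% of class and 95.1% of other cells and *Dab2* in 77.9% and 95.1%, whereas *Apoa1* or *Ttr* reached 10 counts in 1 class cell and in no other cell. Epiblast and neural ectoderm markers were at a median sum of 0.89 and 2.84 CPM, with ranges of 0 to 173 and 0 to 510 CPM, and 1 of 2 compared markers, *Otx2*, was lower, the other being *Epcam* (52.3% and 60.7% of cells). Trophoblast and extraembryonic ectoderm markers had 2 of 14 compared and none called, and they differed in direction. *Eomes*, which is also a streak gene, was found in 73.3% and 85.2% of cells (ratio -0.74), and *Plet1* in 44.2% and 14.8% (1.75, with 2.84 and 0.87 in the lanes). The median ratio was 0.50, with 1.03 in lane 6 and -0.39 in lane 7, and the medians of the summed level were 33.7 and 76.8 CPM with highest values of 799 and 1057, which are those of *Eomes*. Paraxial and somitic mesoderm markers (1 of 9 compared, ratio -1.004) had medians of 0 and 2.10 CPM and highest sums of 216.5 and 271. Of 10 markers of adult-type blood, 6 had no count and the sum never exceeded 7.33 CPM. Allantois and amnion markers had medians of 54.5 and 41.5 CPM and highest sums of 462 and 255, with *Bmp2* the 1 called gene of 2 compared. The part of these cells in the results was not tested, and a small share of cells of a type cannot be told apart from low expression in many.

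The called genes did not all appear at the same number of selecting genes. *Tek* had mean levels of 0.03 CPM in cells with 0 to 2 selecting genes, 6.50 with 3, 60.1 with 4, 89.9 with 5 and 93.4 with all 6. The largest step was that from 3 to 4 genes. These means rest partly on single cells: 1 cell at 148.2 CPM gave nearly all of the value at 3 genes, and 1 class cell reached 1506 CPM. *Sox7* went from 0.45 CPM at 3 genes to 10.7 at 4 and 45.2 at 5. *Cdh5* had 0.02 CPM at 3 genes and no count at 4, but 12.2 at 5 and 16.7 at 6. *Gata1* was at 4.61 CPM with 4 genes, 56.1 with 5 and 91.0 with 6, and *Runx1* at 14.1, 127.2 and 159. *Cdh5* and *Gata1* in the class were thus mainly a property of cells with 5 or 6 selecting genes. From 3 genes on *Mesp1* went the other way, from 32.1 CPM to 16.1, 11.2 and 4.56. Its mean over all other cells was 21.8 CPM, so with 0 to 2 genes it was lower than with 3. *T* was highest at 5 genes, with 66.0, 133.9 and 85.5 CPM for 4, 5 and 6. The number of selecting genes in a cell also depends on how its reads fell, and these levels were not tested.

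**Figure D4:**
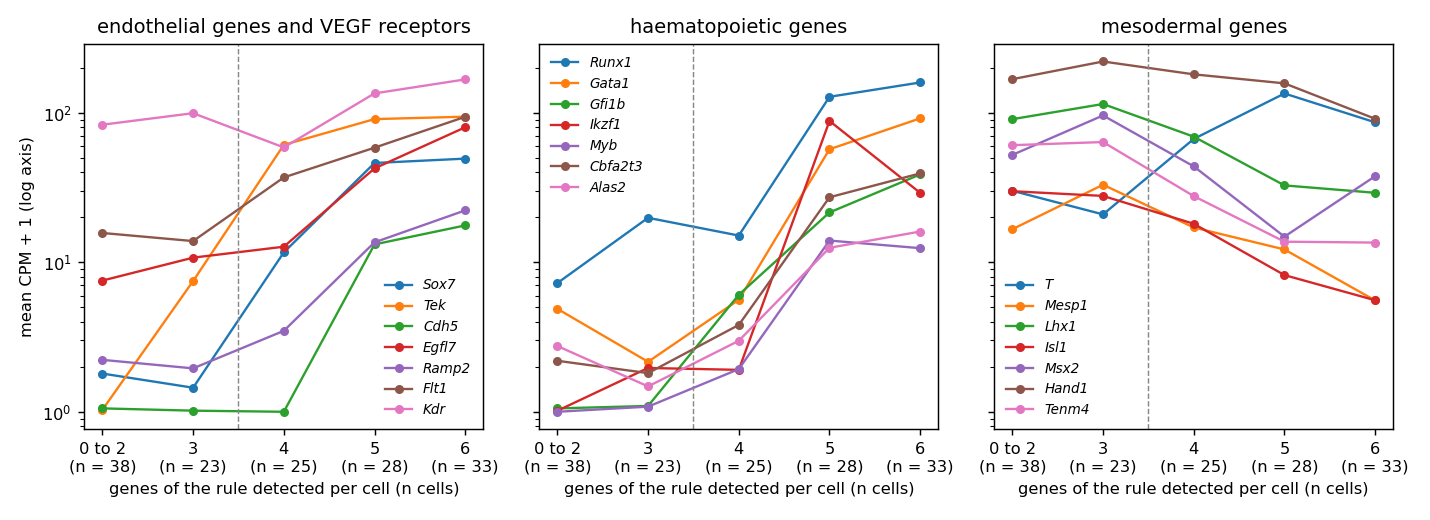
Mean CPM + 1 (y axis, log scale) of named endothelial, haematopoietic and mesodermal genes in E7.25 cells grouped by the number of selecting genes with a count (x axis: 0 to 2, 3, 4, 5 or 6, in 38, 23, 25, 28 and 33 cells), with a dashed line at the limit of the class. *Tek* is at 60.1 CPM by 4 genes, and *Cdh5*, *Gata1* and *Runx1* reach 12.2, 56.1 and 127.2 CPM at 5. *Mesp1* is highest at 3 genes (32.1 CPM) and is at 4.56 at 6.

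Endothelial and haematopoietic genes were found in the same single-cell libraries. *Tek* was found in 50 class cells, *Gata1* in 36 and both in 28 of 86 (32.6%). *Gata1* was found in 56.0% of the *Tek*+ class cells (41.3 to 70.0%) and 22.2% of the 36 without *Tek* (10.1 to 39.2%), at median depths of 1789149 and 1808360 counts. Without the cells that had transcripts of both sexes, both genes were found in 21 of 68 class cells (30.9%). Among the 33 cells with all 6 selecting genes the pair was found in 16. There *Gata1* was found in 72.7% of the 22 *Tek*+ cells (49.8 to 89.3%) and 45.5% of the 11 without *Tek* (16.7 to 76.6%), and the intervals overlapped. *Myb* and *Gfi1b* were likewise found in 46.0% of *Tek*+ class cells each and in 11.1% and 13.9% of the rest. *Cdh5* was found in 56.0% of *Tek*+ cells and 11.1% of the rest. *Runx1* was found in 35 of the 36 *Gata1*+ cells (97.2%) and in 70.0% of the 50 without *Gata1*. *Mesp1* was found in 48.0% of *Tek*+ class cells (33.7 to 62.6%) and 80.6% of those without *Tek* (64.0 to 91.8%), whereas *T* was found in 92.0% and 83.3%. Among the cells with all 6 selecting genes the *Mesp1* difference was gone, at 54.5% with *Tek* and 54.5% without. In these cells *Cdh5* still differed, at 86.4% and 18.2%. The shared captures and the choice of the class by related genes bear on all of these shares, and no test was made.

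The same pair was followed in later sorted cells. *Tek* and *Gata1* were found together in 56 of 91 E7.75 cells that met the same rule, in 67 of 89 E8.5 HPC, in 38 of 66 E8.5 EryP and in 28 of 37 E8.5 Mk, but in 0 of 79 E8.5 Endo, a 0 that leaves room for 3.80% by the rule of 3 cells in 79 and 4.56% by the exact interval. All 79 Endo cells had *Tek* and *Cdh5*, and all 66 EryP and 37 Mk cells had *Gata1*. *Mesp1* and *T* were almost absent later: *Mesp1* was found in 5 of 91 E7.75 class cells and in none of the sorted E8.5 cells, and *T* in 23 of 91 and in 1 E8.5 cell, an HPC. The HPC, EryP, Mk and Endo were sorted on the surface proteins named above, so their shares of *Cdh5* follow the gates.

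The same rule and comparison were run on the 140 E7.75 *Flk1*-GFP+ cells, of which 91 were in the class. Of 10075 compared genes 323 were higher (3.21%) and 254 lower (2.52%). Of the 211 genes higher at E7.25, 180 were compared at E7.75 and 67 were higher there too, 37.2% of those 180 and 20.7% of the E7.75 list. A ratio above 0 in both E7.75 lanes was found for 60.6% of the 180, against 25.6% of all genes compared at both stages. Of the genes lower at E7.25, 82 were compared and 6 were lower at E7.75, 7.32% of the 82 and 2.36% of the E7.75 list. Among them 32 of 82 (39.0%) had a ratio below 0 in both lanes, against 33.2% of all genes. The genes called higher at both stages included *Gata1* (3.85 and 7.28), *Gfi1b* (4.47 and 6.61), *Ikzf1* (4.88 and 5.57), *Cdh5* (3.45 and 3.36), *Cbfa2t3* (3.61 and 3.32) and *Alas2* (2.29 and 4.88), the first value being that at E7.25. *Tek* (4.59 and 1.84), *Runx1* (3.16 and 3.85) and *Sox7* (4.49 and 4.98) were called at both as well, whereas *Flt1* was not called at E7.75 (2.13 and -0.17). Stage differences in size were not tested.

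The 211 higher genes were also looked up in the 4 E8.5 sorted populations. The highest mean of the 4 was in Endo for 110 genes (52.1%), in EryP for 39 (18.5%), in Mk for 32 (15.2%) and in HPC for 30 (14.2%). For all 9864 compared genes these shares were 33.6%, 33.1%, 19.5% and 13.8%. The E8.5 Endo mean was above the E7.25 class mean for 54.0% of the 211 genes, the HPC mean for 49.8%, the Mk mean for 37.9% and the EryP mean for 28.4%, against 44.3%, 47.4%, 47.9% and 48.9% of all compared genes. The lower genes had their highest mean in Endo for 52 (46.0%) and in EryP for 27 (23.9%). The populations differ in sort and size, 89 HPC, 66 EryP, 37 Mk and 79 Endo cells, and no test was made.

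**Figure D5:**
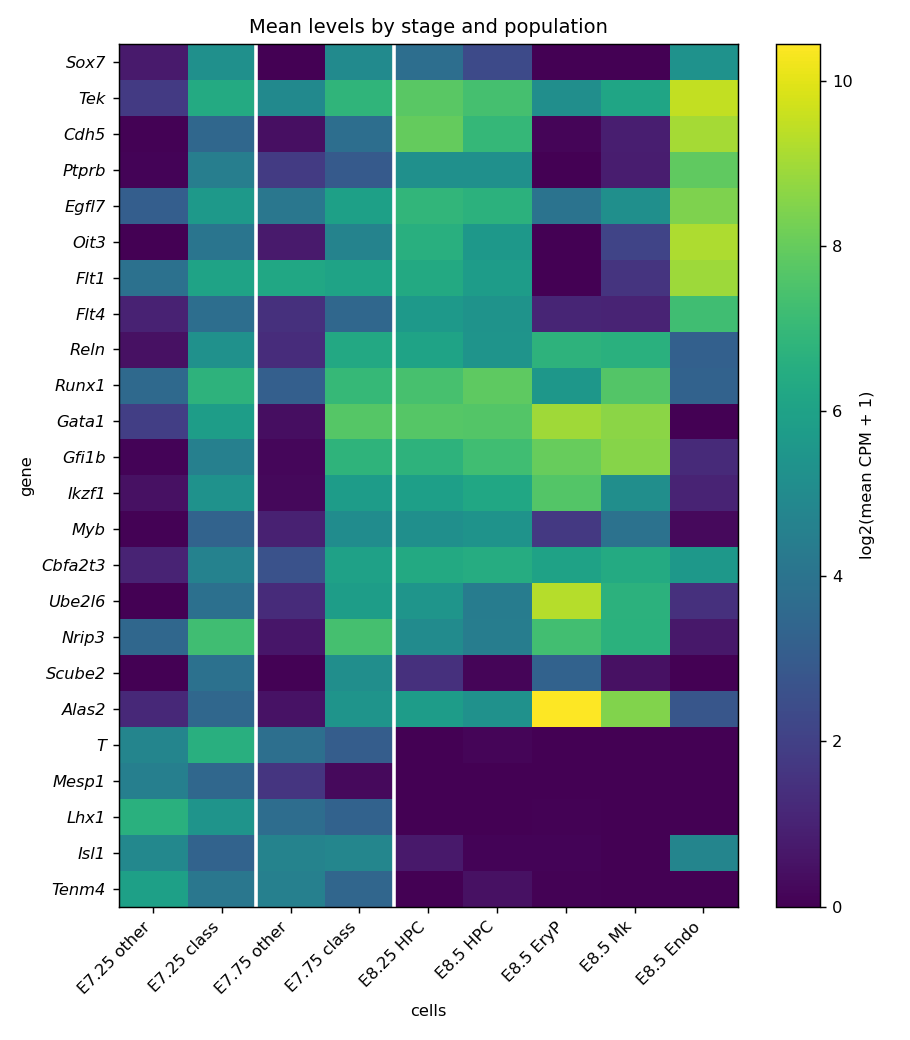
Log2 of mean CPM + 1 (colour) of named genes (rows) in the other and class cells of E7.25 and E7.75, E8.25 HPC and the E8.5 HPC, EryP, Mk and Endo cells (columns), white lines dividing the stages of the *Flk1*-GFP+ sort and the later sorts. *Gata1* has a mean of 501 CPM in EryP and none in Endo, *Cdh5* has 528 CPM in Endo and 124.3 in E8.5 HPC, and *Mesp1* and *T* are at or near 0 from E8.25 on.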

How the data were processed

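Single-cell RNA-seq was analysed for 147 E7.25 and 140 E7.75 *Flk1*-GFP+ mouse yolk sac cells and the E8.25 and E8.5 sorted populations. The authors made Nextera XT libraries on the Fluidigm C1, read them as paired ends of 100 bases, aligned them with Rsubread to GRCm38 (Ensembl release 84) and counted reads per gene with featureCounts; these counts were used for detection (1 count or more). The signal values deposited by the authors are CPM made with scran size factors from cells and genes that passed their scater filter; within a cell they are counts times 1 factor, and their sums differ between cells. Levels are means of these values over cells.

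The cells were divided by the 6 genes, and genes were compared if they averaged at least 5 CPM and had a count in 10% or more of the 147 cells as log2 of mean CPM + 1. A gene was called at a log2 ratio of 1 or more, or -1 or less, in both lanes (6 and 7), which 211 genes met upward and 113 downward. Named genes were the 12 per direction with the largest smaller-lane ratio and the called members of the gene lists. The members and lists were chosen with earlier results of these data known. No test was made, because no cell is tied to an embryo or pool. The depth per cell is given with the results, and intervals are exact at 95%. Gene IDs were matched through GENCODE M21 (GRCm38), where 9538 of 9864 compared genes had a single ID. Alternatives were other class rules, depths, scalings, filters, thresholds and single lanes; co-detection without cells with transcripts of both sexes was added after seeing the data. The fold rule was tested on simulated counts without differences between lanes, and thinning was checked for its totals. The class rule, the lists and co-detection were not simulated. The scripts ran in Python 3.11.15 with the packages pandas 2.3.3, numpy 2.4.6, matplotlib 3.10.9 and scipy 1.17.1.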

Additional observations from a re-analysis of the deposited data

Results flagged for a closer look

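For 4 named genes the class differed from the other cells in one direction in both E7.25 lanes and in the opposite direction in both E7.75 lanes. The difference between the stages was not tested, and stage cannot be told apart from sequencing run. *T* had a log2 ratio of 1.86 at E7.25 and -0.77 at E7.75, *Isl1* -1.53 and 0.15, *3110052M02Rik* -2.09 and 1.38, and *Lama1* 2.83 and -1.36. For *Lama1* 1 cell held 82.6% of the class CPM at E7.25, and the E7.25 ratio was below 0 under 4 alternatives (-3.20 to -0.44).

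For 4 listed mesoderm genes reads were present in the table of all genes, which the comparisons did not use, although the genes are not among those used for the comparisons. Of the other E7.25 cells, *Dll3* had a count in 39.3%, *Sp5* in 37.7%, *Tbx6* in 32.8% and *Wnt2b* in 26.2%. In the class the shares were 27.9%, 32.6%, 17.4% and 14.0%.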

How the results depend on the processing

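The class held 58.5% of the E7.25 cells, 74.1% with at least 3 of the 6 genes, 41.5% with at least 5 or with detection at 10 counts, 22.4% with all 6, and 48.6% to 68.5% when a lane was left out. Of the compared genes 2.14% were higher, and 1.35% for all 6 genes, 3.68% without cells with exactly 3 or 4, 1.26% by the difference in mean log2(CPM + 1), 0.629% with a pseudocount of 10, 2.60% (415 of 15961) without a filter, 0.550% (21 of 3821) at a mean of 50 CPM or more, 5.20% at a ratio of 0.58 and 0.466% at 2. Lower genes made up 1.15%, and 0.639% with at least 3 genes, 1.89% with at least 5, 3.56% with all 6, 2.09% with detection at 10 counts, 1.76% without cells with exactly 3 or 4, 0.730% by the difference in mean log2(CPM + 1), 0.152% with a pseudocount of 10, 1.46% (233) without a filter, 0.0785% (3) at 50 CPM, 3.70% at 0.58 and 0.0203% (2) at 2. With 1 lane left out, so that a single lane made the call, 6.51% to 9.06% were higher and 5.53% to 7.21% lower. Thinning, depth matching (59 class and 59 other cells), division by the total, and leaving out cells with transcripts of both sexes or with *Apoa1* or *Ttr* each left both counts within 1.5 times. Directions turned for *Gm42986* (0.26 with at least 3 genes), *Rwdd3* (2.27 with at least 3 and 0.17 without cells with 3 or 4), *D430042O09Rik* (0.024 with all 6) and *Lama1* (-3.06 with at least 5, -1.90 with all 6, -3.20 with detection at 10 counts and -0.44 without cells with transcripts of both sexes), and the cause was not tested. Of 49 called named genes 45 kept their sign under all 14 alternatives, 30 of 31 higher and 15 of 18 lower. The single-lane runs and the pseudocount could not turn a sign, because the call already set the direction in each lane. Ratios that kept their sign could still shrink, to 0.09 for *Pecam1*, 0.29 for *Notch1*, 0.35 for *Ikzf1*, -0.08 for *Mesp1* and -0.04 for *Hey2*. Of 24 list medians 12 kept their sign under every alternative run, those of endothelial and haematopoietic genes in all 16, and 12 turned: Notch genes and trophoblast markers in 7, immediate early genes in 3, mesenchymal, FGF and Wnt, mitosis and visceral endoderm genes in 2, and BMP, integrin, glycolysis, epiblast and allantois genes in 1. No paired analysis was possible because the results come from no test and no label pairs 1 cell with another; both classes are in both lanes, and the call already compares them within each. Levels of genes found in few cells, and shares near 0, are limited by depth and by the number of cells.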
